A study of Arabidopsis thaliana with 12 samples.

Results

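The loss of PIF1, PIF4 and PIF5 in the presence of PIF3 was examined by comparing the triple mutant *pif1pif4pif5* (*pif145*) with wild type (WT) in darkness. The comparison rests on 6 of the 12 libraries of the study, 3 of *pif145* and 3 of WT, chosen by their labelled genotype, and on the 18356 of 33602 loci with enough reads to be tested. The other 6 libraries are 3 of the quadruple mutant *pif1pif3pif4pif5* (*pifq*) and 3 of the single mutant *pif3*, in which the same 3 genes are lost or kept without PIF3. All genotypes are in the Columbia-0 ecotype and were whole 2-day-old seedlings from the true dark condition, grown after a short white light treatment for germination and a far-red pulse. The mutations are present in every cell of the seedling. Messenger RNA was sequenced from its 3′ end, and levels are given in CPM, reads per 1000000 of the scaled library total, with replicates 1, 2 and 3 in that order. In whole seedlings, fewer cells of a type and less RNA per cell cannot be told apart.

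The PIFs, or phytochrome-interacting factors, are transcription factors of the basic helix-loop-helix (bHLH) kind that build up in darkness and are degraded once light activates the phytochromes. In a dark seedling they hold back greening and favour an elongated hypocotyl, a closed hook and folded cotyledons. They bind the G-box (CACGTG) and the related PBE-box (CACATG) in DNA. PIF1 is best known for restraining seed germination and chlorophyll synthesis, and PIF4 and PIF5 for growth in shade and warmth.

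The mutated genes were examined first. *PIF1* (AT2G20180, chromosome 2, 8704024 to 8707009 in TAIR10.1) stood at 0.124, 0.160 and 0.150 CPM in *pif145*, against 10.6, 9.58 and 9.04 CPM in WT. The difference was log2 -6.08 (SE 0.20, edgeR adjusted p = 1.29e-13), from 13 reads in *pif145* and 999 in WT. For *PIF5* (AT3G59060, chromosome 3, 21827905 to 21830837) the *pif145* libraries held 4 reads and the WT libraries 129 (log2 -4.73, SE 0.46). Both genes were thus far lower in every library labelled *pif145*. *PIF4* (AT2G43010) had 6.01, 6.21 and 4.36 CPM in *pif145* and 5.33, 2.83 and 1.73 CPM in WT, which overlap, and did not reach the 2-fold threshold (log2 0.81, SE 0.20). Tags from the 3′ end of a transcript may lie outside the disrupted part of a gene, so the *PIF4* values do not check that label. *PIF3*, which is intact in both genotypes, had 35.95, 58.6 and 46.1 CPM in *pif145* and 52.3, 80.1 and 52.8 CPM in WT (log2 -0.40, SE 0.10) and was not called. *PIF7* was too low to be tested, with 9 reads in *pif145* and 0 in WT.

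A locus was called as risen or fallen where its adjusted p was at most 0.05 in edgeR's quasi-likelihood test, adjusted over all loci by the method of Benjamini and Hochberg, and its fold change was at least 2. In *pif145*, 371 loci rose (2.02% of those tested) and 281 fell (1.53%), 652 in all (3.55%). The adjusted p alone was passed by 5822 loci (31.7%), so the fold threshold set most of the count. Among the rises, 65 reached 4-fold and 241 were under 3-fold. Among the falls, 64 reached 4-fold and 177 were under 3-fold. The rises together amounted to 26207 to 40168 CPM in *pif145* and 10737 to 11278 CPM in WT, and 10 loci made up 56.5% of that gain. The falls together amounted to 2756 to 3605 CPM in *pif145* and 8650 to 9783 CPM in WT. Many changed loci were scarce, with 178 rises and 101 falls under 2 CPM in the higher genotype. The 3 *pif145* libraries lay wholly apart from the 3 WT libraries in 557 of the 652 changed loci (85.4%), against 3872 loci (21.1%) of all tested. Total counts were 26386580 to 36395621 in *pif145* and 26073668 to 36860574 in WT. Without the replicate number as a block, 314 loci changed (164 rose and 150 fell), and 288 did when a locus had to reach 5 CPM in 3 libraries. With no scaling factors, where the median log2 of all loci was -0.123, 301 rose and 379 fell.

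**Figure D1:**
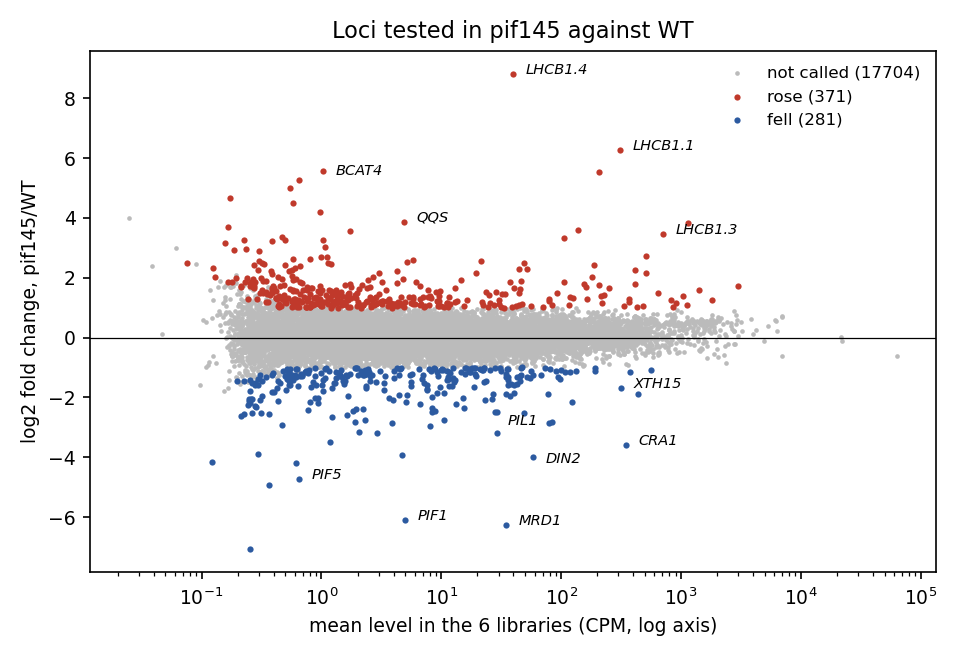
Log2 fold change of *pif145* over WT (vertical axis) against the mean level in the 6 libraries in CPM (horizontal log axis) for the 18356 loci tested, 1 point a locus. The 371 rises lie above and the 281 falls below, with *LHCB1.4* at the top, and *PIF1* and *MRD1* near the bottom.

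The antenna proteins of photosystem II bind chlorophyll and pass light energy to the reaction centre. Of the 15 genes listed, 13 rose, 0 fell and 2 did not pass, with a median log2 of 2.49, against -0.02 over all loci tested. Their summed level was 4901 to 10317 CPM in *pif145* and 1083 to 1260 CPM in WT. *LHCB1.1* (AT1G29920, chromosome 1, 10474656 to 10475969), one of the major antenna genes, had 1319, 143 and 372 CPM in *pif145*, against 11.5, 3.77 and 4.22 CPM in WT (log2 6.28, SE 0.34, edgeR adjusted p = 1.81e-10). Its neighbour *LHCB1.2* (AT1G29910) had 738, 137 and 345 CPM in *pif145* and 12.8, 4.92 and 5.98 CPM in WT (log2 5.53, SE 0.24). *LHCB1.4* (AT2G34430) had 180, 9.45 and 50.3 CPM in *pif145*, from 8828 reads, against 14 reads over the WT libraries (log2 8.79, SE 0.81). In all 3 genes replicate 2 of *pif145* was the lowest of that genotype and replicate 1 the highest, and the genotypes still did not overlap. Without replicate 1 of *pif145* the fold changes were log2 5.62 for *LHCB1.1* and 7.48 for *LHCB1.4*, which was at 9.41 without replicate 2.

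The more abundant *LHCB1.5* (AT2G34420) varied less, with 2205, 1540 and 2686 CPM in *pif145* and 175, 136 and 125 CPM in WT (log2 3.84, SE 0.17). *LHCB2.2* (AT2G05070) had 349, 172 and 249 CPM in *pif145* and 25.9, 20.8 and 16.5 CPM in WT. *LHCB3*, which joins the major trimers to the core, had 472, 212 and 272 CPM in *pif145* and 63.0, 59.9 and 47.7 CPM in WT (log2 2.42, SE 0.14). The minor antenna genes moved by less. *LHCB6* rose by log2 2.16 (SE 0.10), *LHCB5* by 1.49 (SE 0.10), *LHCB4.2* by 1.48 (SE 0.10) and *LHCB4.1* by 1.29 (SE 0.12). The 2 members that did not pass were scarce in both genotypes, *LHCB4.3* at 2.11 CPM in *pif145* and 2.23 CPM in WT, and *LHCB7* at 0.436 CPM in *pif145* and 0.641 CPM in WT. Near-identical copies limit the values of single genes, since 63.7% of the 36-base windows in the counted end of *LHCB2.2*, 75.1% in *LHCB1.3*, 78.7% in *LHCB1.2*, 82.6% in *LHCB1.5* and 91% in *LHCB1.4* belong to that gene alone.

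In the antenna of photosystem I, 4 of 6 genes rose and 0 fell, with 2 short of the threshold and a median log2 of 1.62. *LHCA1* (AT3G54890) stood highest in fold, with 1089, 406 and 1172 CPM in *pif145* and 124, 93.1 and 161 CPM in WT (log2 2.73, SE 0.16). *LHCA2* and *LHCA3* rose by log2 1.66 each (SE 0.12 and 0.11) and *LHCA4* by 1.58 (SE 0.13), while *LHCA6*, whose product joins a complex with the NADH dehydrogenase-like enzyme, was at log2 0.68 (SE 0.08) and *LHCA5* at 0.50 (SE 0.15). The nuclear genes of the photosystem cores and electron transport moved together but by less. Of 31 members 20 rose, 0 fell and 11 did not reach 2-fold, and all 31 were higher in *pif145* at the adjusted p (median log2 1.09), against 16.2% of all loci. The largest fold changes were those of *PSBQ2*, of the oxygen-evolving complex, with 328, 253 and 294 CPM in *pif145* and 80.9, 79.8 and 54.7 CPM in WT (log2 2.03, SE 0.12), and of the photosystem I subunit genes *PSAK* (log2 1.78, SE 0.10), *PSAE1* (log2 1.75, SE 0.11) and *PSAG* (log2 1.74, SE 0.11). The Rieske protein gene *PETC* (log2 0.49, SE 0.08) and the ferredoxin reductase gene *LFNR2* (log2 0.37, SE 0.11) had the smallest.

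Chlorophyll synthesis was less changed. Of 26 genes 4 rose, 0 fell and 22 missed the threshold. At the adjusted p, however, 21 were higher in *pif145*, against 16.2% of all loci (median log2 0.65). *CHLH* (AT5G13630), the large subunit of magnesium chelatase, had 362, 305 and 326 CPM in *pif145* and 127, 135 and 111 CPM in WT (log2 1.42, SE 0.09, edgeR adjusted p = 1.29e-09). *GUN4*, which binds its porphyrin substrate and product, had 77.5, 58.0 and 61.6 CPM in *pif145* and 21.5, 29.2 and 19.8 CPM in WT (log2 1.48, SE 0.11). The oxygenase gene *CAO* (AT1G44446), which makes chlorophyll b, rose by log2 1.25 (SE 0.12), and the cyclase gene *CRD1* by 1.01 (SE 0.09). The call of *CRD1* was lost without replicate 1 of *pif145* (log2 0.94) and without replicate 3 of WT (log2 0.92). None of the 3 protochlorophyllide oxidoreductases, which need light to make chlorophyllide, reached 2-fold. *PORA* had 1469, 1932 and 1868 CPM in *pif145* and 1219, 1664 and 1401 CPM in WT, and *PORB* stood at log2 0.20 (SE 0.10). *PORC* had 185, 121 and 144 CPM in *pif145* and 96.1, 82.2 and 89.4 CPM in WT, without overlap (log2 0.74, SE 0.09). *HEMA1*, the first committed enzyme of the pathway, was at log2 0.95 (SE 0.09), just under the threshold.

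The 16 Rubisco and carbon fixation genes held 0 rises and 0 falls. At the adjusted p 14 of them were higher in *pif145*, against 16.2% of all loci (median log2 0.64). The highest were *FBA1*, an aldolase of the plastid (log2 0.90, SE 0.08), and *GAPA2*, a subunit of the Calvin cycle dehydrogenase (log2 0.83, SE 0.11). The small subunit gene *RBCS3B* was at 6722 CPM in *pif145* and 5871 CPM in WT, on average (log2 0.21, SE 0.08). Likewise 0 of 8 carotenoid synthesis genes and 0 of 10 greening regulators and sigma factors changed. Among these *PSY*, the entry enzyme of carotenoid synthesis, was at log2 0.78 (SE 0.13), and *GLK1*, a transcription factor of antenna genes, had 14, 10.7 and 13.1 CPM in *pif145* and 11.2, 7.51 and 9.94 CPM in WT. Of the 6 early light-induced and LHC-like genes 0 changed, with *ELIP2* and *SEP1* at log2 0.72 each (SE 0.18 and 0.09). The rise in greening transcripts was therefore greatest in fold for the antenna, smaller for the cores and under 2-fold for most genes of chlorophyll synthesis and all those of carbon fixation.

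**Figure D2:**
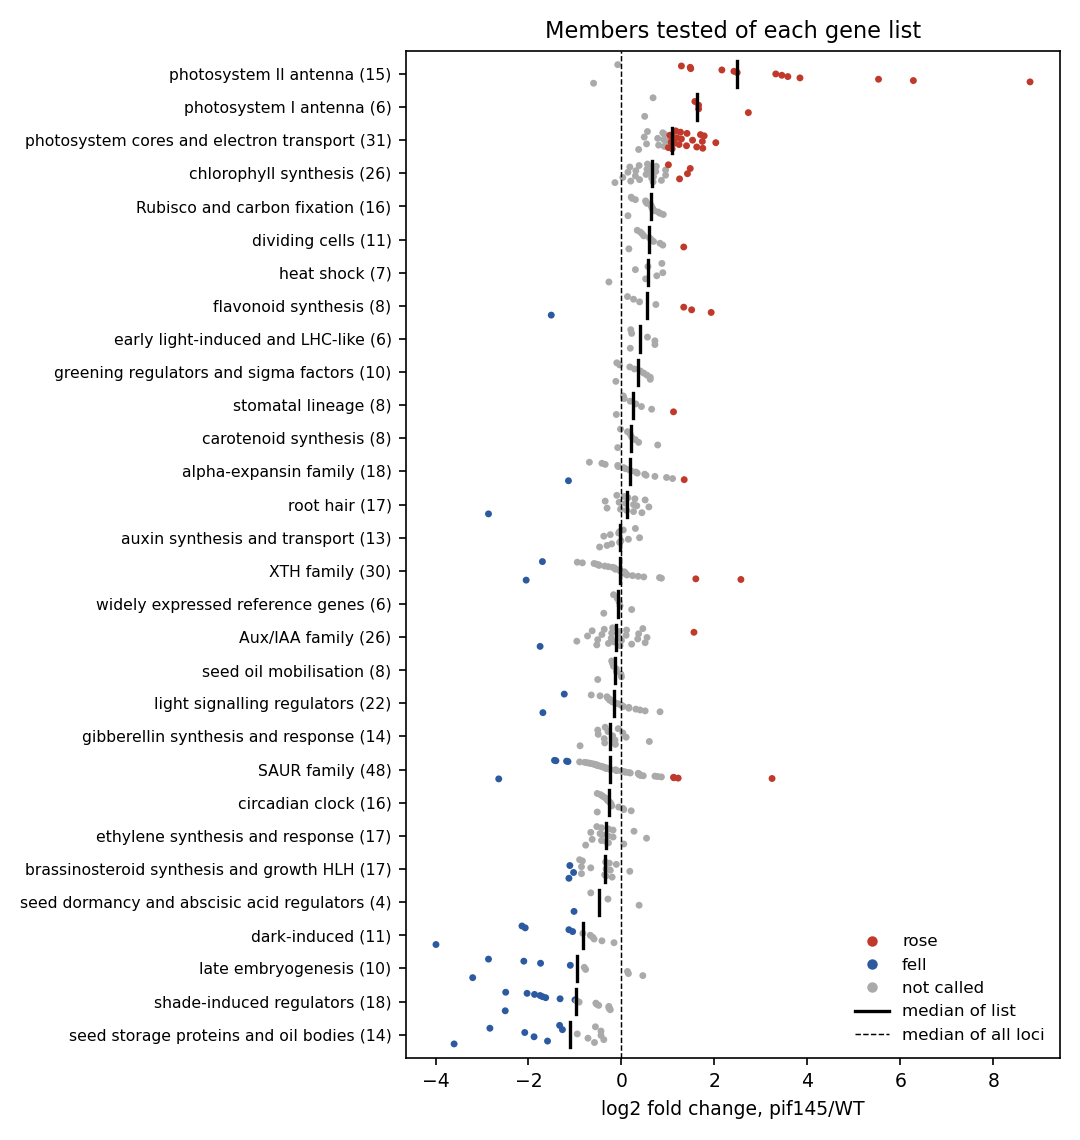
Log2 fold change of *pif145* over WT (horizontal axis) for the tested members of 30 of the 32 gene lists (number tested in brackets; the PIF genes and PIF relatives are not drawn), 1 point a gene, coloured by its call. A black tick marks each list's median and a dashed line the median over all loci (-0.02). Of the lists drawn, the photosystem II antenna has the highest median (2.49) and the seed storage list the lowest (-1.11).

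Close bHLH relatives of the PIFs fell in part. Of 6 tested, 3 fell and 3 missed the threshold (median log2 -1.38). *PIL1* (AT2G46970, chromosome 2, 19295431 to 19297858), a PIF-like gene induced by shade, had 5.89, 11.9 and 7.89 CPM in *pif145*, against 37.2, 58.1 and 46.1 CPM in WT (log2 -2.49, SE 0.12, edgeR adjusted p = 3.22e-11). *HFR1* (AT1G02340), whose product sequesters PIFs, had 6.70, 10.2 and 9.95 CPM in *pif145* and 49.9, 50.2 and 49.4 CPM in WT (log2 -2.50, SE 0.11). *PIF6* (AT3G62090) had 0.247, 0.481 and 0.564 CPM in *pif145* and 4.46, 3.77 and 2.86 CPM in WT (log2 -3.17, SE 0.31). No library of one genotype reached those of the other in these 3 genes. The bHLH genes *SPT* (log2 -0.26, SE 0.08), *PIF8* (log2 -0.25, SE 0.39) and *ALC* (log2 -0.09, SE 0.23) were not called.

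Genes on the list of shade-induced regulators, some of which encode enzymes, were lower as a list. Of 18 genes 9 fell, 0 rose and 9 did not pass, and 16 were lower in *pif145* at the adjusted p (median log2 -0.98), against 15.5% of all loci. Many of the 18 are genes that the study named as PIF-induced from these same libraries, so the count is no independent support. *PIL1*, *HFR1*, *XTH15*, *IAA19* and *IAA29* of this list are also members of other lists. *ATHB-2* (AT4G16780), a homeodomain protein that promotes elongation in shade, had 6.29, 3.53 and 3.98 CPM in *pif145* and 18.7, 12.7 and 18.2 CPM in WT (log2 -1.87, SE 0.13). Its relative *ATHB4* fell by log2 2.03 (SE 0.31), while *HAT2* (log2 -0.27, SE 0.12) and *HAT3* (log2 -0.49, SE 0.07) of the same family were not called. *XTH15* (AT4G14130), a xyloglucan-modifying enzyme of the cell wall, had 94.4, 189 and 169 CPM in *pif145* and 381, 535 and 529 CPM in WT (log2 -1.70, SE 0.12). *IAA29* (AT4G32280), an auxin response repressor, had 4.78, 3.12 and 2.55 CPM in *pif145* and 16.6, 11.3 and 7.62 CPM in WT (log2 -1.75, SE 0.13). The jasmonate sulfotransferase gene *ST2A* (log2 -1.32, SE 0.16), the B-box gene *BBX29* (log2 -1.63, SE 0.37) and the homeodomain gene *ATHB52* (log2 -1.0, SE 0.13) also fell. *PAR1* and *PAR2*, which restrain shade growth, were at log2 -0.27 (SE 0.10) and -0.24 (SE 0.09).

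**Figure D3:**
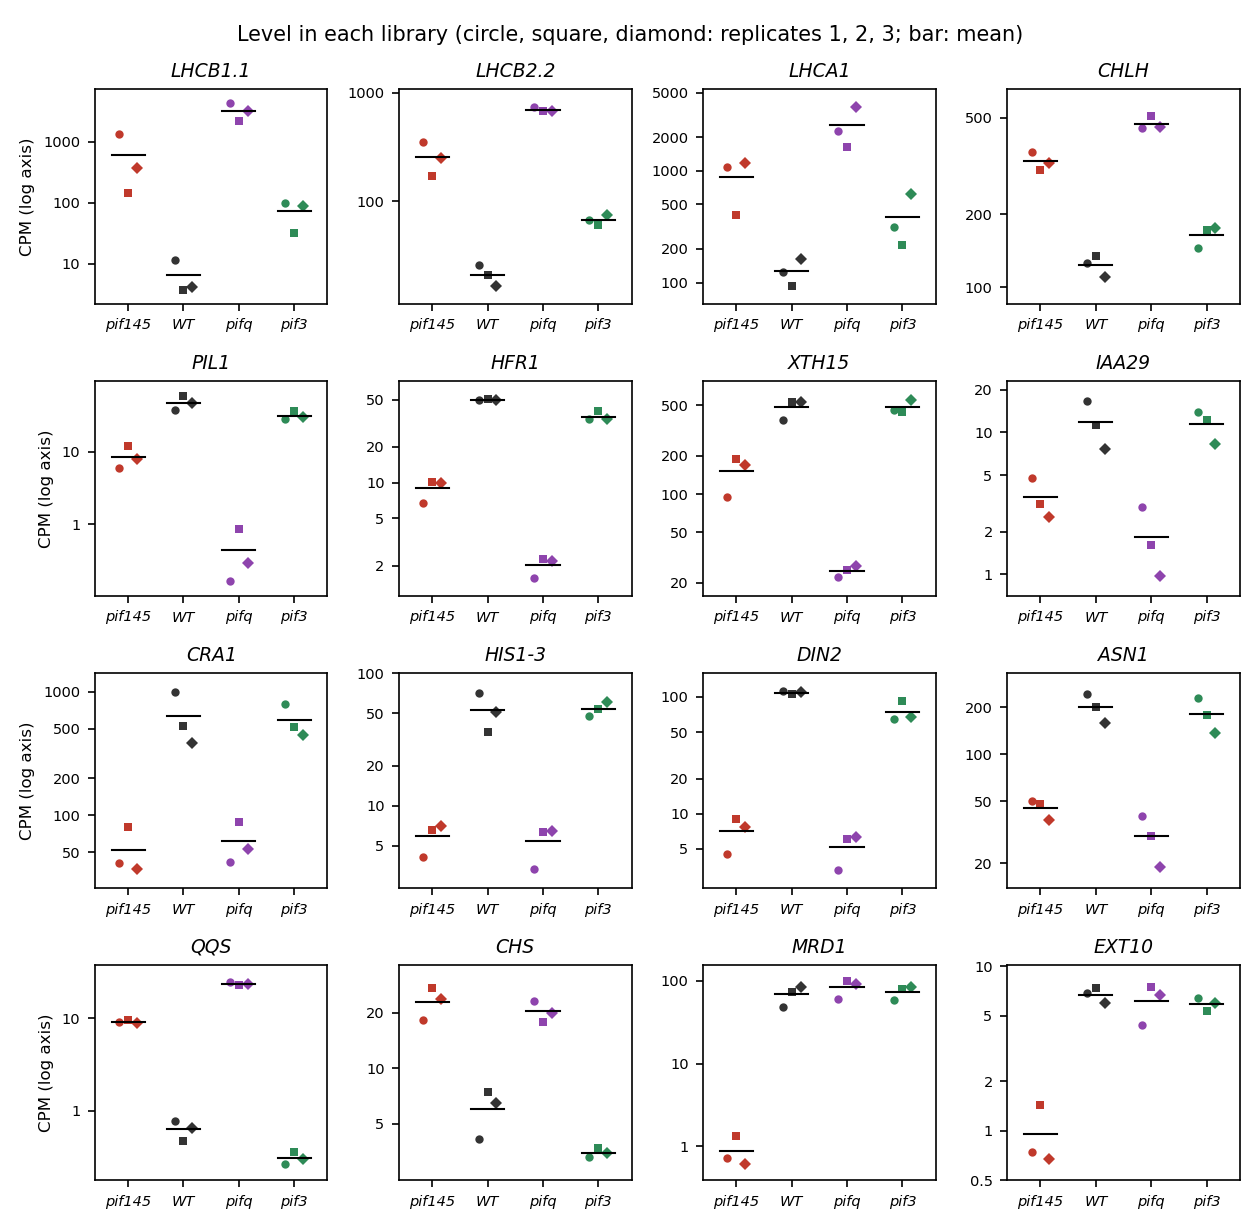
CPM in each library (vertical log axis, own scale in each panel) of 16 genes in *pif145*, WT, *pifq* and *pif3*. Circles, squares and diamonds are replicates 1, 2 and 3, and the bar is the mean of 3. In each panel the *pif145* points lie wholly above or wholly below the WT points.

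Among the growth hormone lists, most changes past 2-fold were in the SAUR family, and the counts are to be read beside the 3.55% of all loci that changed. In the Aux/IAA family of auxin response repressors 1 of 26 genes rose, *IAA5* (log2 1.56, SE 0.32), and 1 fell, *IAA29*, while *IAA19* was at log2 -0.96 (SE 0.08). Without the block 1 Aux/IAA gene changed. At the adjusted p alone 9 of the 26 were lower in *pif145* and 3 were higher, against 15.5% and 16.2% of all loci. In the SAUR family of small auxin-induced proteins 4 of 48 rose and 5 fell (median log2 -0.25). In all 4 changed without the block and 5 without replicate 3 of every genotype. At the adjusted p alone 16 of the 48 were lower in *pif145* and 6 were higher. *SAUR1* had 6.93, 6.37 and 5.03 CPM in *pif145* and 14.05, 16.3 and 18.6 CPM in WT (log2 -1.41, SE 0.17), and *SAUR19* and *SAUR23*, which promote cell expansion, fell by log2 1.18 (SE 0.14) and 1.15 (SE 0.13). Both calls were lost without replicate 3 of WT, at log2 -0.97 and -0.96. Only 61.7% of the 36-base windows in the counted end of *SAUR19* are its own. *SAUR31* rose, at 0.706 CPM in *pif145* and 0.0708 CPM in WT (log2 3.24, SE 0.49), from 70 reads in *pif145* and 7 in WT. Of 13 auxin synthesis and transport genes, 17 ethylene genes and 14 gibberellin genes, 0 rose and 0 fell in each list. At 2-fold this lies near the share of all loci for lists of this size. Leaving out single libraries gave 1 change in the ethylene and the gibberellin list. At the adjusted p alone, 5 auxin, 7 ethylene and 6 gibberellin genes were lower in *pif145*, against 15.5% of all loci. Higher were 1, 0 and 0, against 16.2%. *ACS5*, an ethylene synthesis gene, was at log2 -0.77 (SE 0.12) and *ERS1*, an ethylene receptor gene, at -0.66 (SE 0.09). In the list of brassinosteroid synthesis and growth HLH genes 3 of 17 fell, 0 rose and 11 were lower in *pif145* at the adjusted p (median log2 -0.36). These were *PRE5* (log2 -1.13, SE 0.09), *PRE6* (log2 -1.11, SE 0.15) and *BEE3* (log2 -1.03, SE 0.11), all HLH or bHLH genes of elongation, and the call of *BEE3* was lost without replicate 3 of *pif145* (log2 -0.94) or of WT (log2 -0.97).

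Cell wall genes changed in both directions. In the XTH family of xyloglucan endotransglucosylases 2 of 30 rose and 2 fell (median log2 -0.04), and 2 in all changed without the block. *XTH7* (AT4G37800) had 52.3, 27.6 and 31.5 CPM in *pif145* and 6.97, 5.02 and 6.31 CPM in WT (log2 2.57, SE 0.10, edgeR adjusted p = 2.28e-12), opposite to *XTH15* of the same family. *XTH6* rose (log2 1.6, SE 0.24) and the scarce *XTH2* fell (log2 -2.05, SE 0.60). Of 18 alpha-expansins, which loosen walls, *EXPA15* rose, with 19.1, 15.1 and 16.2 CPM in *pif145* and 7.98, 6.25 and 5.56 CPM in WT (log2 1.35, SE 0.11). *EXPA9* fell by log2 1.14 (SE 0.11), with 32.6, 86.2 and 89.3 CPM in *pif145* and 88.7, 163 and 192 CPM in WT, where the highest *pif145* library passes the lowest of WT. Its call was lost without replicate 1 of *pif145* (log2 -0.96) and without the block.

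Transcripts of the maturing seed were lower in *pif145*. Of 14 seed storage and oil body genes tested 7 fell and 0 rose, with a median log2 of -1.11, and their summed level was 238 to 348 CPM in *pif145* and 854 to 1860 CPM in WT. *CRA1* (AT5G44120, chromosome 5, 17756238 to 17758336), which encodes the storage protein cruciferin, had 41.3, 79.5 and 36.4 CPM in *pif145*, against 997, 531 and 383 CPM in WT (log2 -3.60, SE 0.29, edgeR adjusted p = 2.51e-08). *CRU3* (AT4G28520), another cruciferin, had 19.1, 23.5 and 14.1 CPM in *pif145* and 277, 83.1 and 89.8 CPM in WT (log2 -2.83, SE 0.30). Replicate 1 of WT was the highest library in both, and without it the values were log2 -3.15 and -2.3. The caleosin gene *CLO1* (log2 -2.08, SE 0.28), the albumin genes *SESA5* (log2 -1.88, SE 0.30) and *SESA2* (log2 -1.59, SE 0.32), the oleosin gene *OLEO2* (log2 -1.33, SE 0.22) and *CRU2* (log2 -1.27, SE 0.25) also fell. *OLEO3* was at 79.9, 70.4 and 81.4 CPM in *pif145* and 132, 103 and 109 CPM in WT, which did not reach 2-fold.

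Of 10 genes on the late embryogenesis list, 5 fell and 0 rose (median log2 -0.95). The list holds genes whose products protect the dry seed, and also the linker histone gene *HIS1-3* and the peroxiredoxin gene *PER1*. *HIS1-3* (AT2G18050), a linker histone induced by drought, had 4.13, 6.57 and 6.99 CPM in *pif145* and 71.6, 36.1 and 50.7 CPM in WT (log2 -3.20, SE 0.23). *M17* (AT2G41260) had 22.2, 19.7 and 12.3 CPM in *pif145* and 239, 104 and 74.9 CPM in WT (log2 -2.86, SE 0.20). *EM1* (log2 -2.10, SE 0.25), *PER1*, a seed peroxiredoxin (log2 -1.74, SE 0.20), and the dehydrin gene *RAB18* (AT5G66400, log2 -1.10, SE 0.18) fell as well, and *EM1* was at log2 -1.57 without replicate 1 of WT. *LEA4-5* of the same list stood higher in *pif145*, at log2 0.46 (SE 0.14), under the threshold. Only 4 of 11 dormancy and abscisic acid regulators had enough reads. Of these *SOM*, a zinc finger repressor of light-dependent germination, had 20.4, 23.5 and 17.2 CPM in *pif145* and 51.1, 41.1 and 32.3 CPM in WT (log2 -1.02, SE 0.10), a call lost without replicate 1 of *pif145* (log2 -0.88) or of WT (log2 -0.94). *ABI5*, a transcription factor of abscisic acid response, was at log2 -0.66 (SE 0.18). The 8 genes that turn seed oil into sugar held 0 changes, with *ICL*, isocitrate lyase, at 11050, 28440 and 23920 CPM in *pif145* and 11700, 25820 and 30490 CPM in WT (log2 -0.11, SE 0.10). Besides the listed genes, the MADS-box gene *AGL67* had 0.520, 0.681 and 0.526 CPM in *pif145* and 7.72, 4.50 and 3.39 CPM in WT (log2 -3.20, SE 0.23), and the neighbouring gibberellin-regulated genes *GASA2* and *GASA3* fell by log2 3.49 (SE 0.45) and 2.97 (SE 0.26). Without replicate 2 of *pif145* the value of *GASA2* was log2 -4.49.

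The G-box was searched upstream of the start of the annotated gene, since it is the element that PIFs bind. Its 6 letters CACGTG read alike on both strands, and the PBE-box was searched as CACATG on both strands, counted separately from the G-box even where they overlap. In the 300 bases before the start, 10.4% of the rises and 13.9% of the falls held a G-box, against 8.21% of 18305 tested loci. In the 1000 bases before it the shares were 19.7% of the rises and 27.5% of the falls, against 16.2% of all. The PBE-box was held within 300 bases by 17.2% of the rises and 18.2% of the falls, against 13.2% of all. By list, a G-box lay within 300 bases in 7 of 14 seed storage genes, 6 of 10 late embryogenesis genes and 4 of 15 photosystem II antenna genes, but in 1 of 18 shade-induced regulators, of which 8 held one within 1000 bases. Of the fallen seed storage and late embryogenesis genes, only *SESA2*, *SESA5* and *PER1* held one within 300 bases, so most carriers there were not called. The study assigned PIF3 sites further upstream than 1000 bases. It reports PIF3 peaks at G-boxes upstream of *PIL1* and *ATHB-2*, which fell but held no G-box within 1000 bases here. None of the 12 largest rises and none of the 12 largest falls held one within 300 bases, and 1 rise and 3 falls of these did within 1000. The dark-induced list was searched too, and *ASN1* of that list, which fell, held a G-box 167 bases before its start. That stretch lies inside another annotated gene, *AT3G47341*, and is not shown. The windows below are shown because they carry a G-box within 1000 bases in changed genes of the 4 lists above. They are 60 bases of TAIR10.1 from RefSeq, read 5′ to 3′ along the gene's strand, with the G-box in capitals, and a match is a description of the letters and not a bound site.
HFR1: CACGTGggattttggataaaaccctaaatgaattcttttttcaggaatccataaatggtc
ATHB52: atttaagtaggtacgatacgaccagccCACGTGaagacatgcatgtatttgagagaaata
BBX29: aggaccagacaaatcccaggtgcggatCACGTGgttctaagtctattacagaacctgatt
LHCB2.3: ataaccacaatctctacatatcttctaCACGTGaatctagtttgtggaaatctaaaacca
LHCB4.1: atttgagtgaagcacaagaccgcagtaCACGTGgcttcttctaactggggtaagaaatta
LHCB6: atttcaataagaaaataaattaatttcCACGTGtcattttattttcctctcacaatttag
CRA1: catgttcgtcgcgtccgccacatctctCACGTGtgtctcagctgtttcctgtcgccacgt
CRU2: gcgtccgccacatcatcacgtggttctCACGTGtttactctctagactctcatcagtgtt
SESA2: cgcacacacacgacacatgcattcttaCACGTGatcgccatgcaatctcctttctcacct
SESA5: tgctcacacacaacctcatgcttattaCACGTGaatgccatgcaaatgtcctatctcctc
PER1: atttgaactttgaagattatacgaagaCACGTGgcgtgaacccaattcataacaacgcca

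The first base of the G-box was 1000 bases before the start in *HFR1* (chr1:468821-468880, minus strand), 675 in *ATHB52* (chr5:21913181-21913240, plus strand) and 482 in *BBX29* (chr5:22115989-22116048, minus strand). The antenna genes had it closer, 88 bases before the start in *LHCB2.3* (chr3:10255791-10255850, plus strand), 74 in *LHCB4.1* (chr5:208765-208824, plus strand) and 124 in *LHCB6* (chr1:5447972-5448031, minus strand). Among the seed genes it was 521 bases before the start in *CRA1* (chr5:17758825-17758884, minus strand) and 965 in *CRU2* (chr1:984759-984818, plus strand), whose window holds a further G-box in lower case. It was 65 bases before the start in *SESA2* (chr4:13609249-13609308, plus strand), 68 in *SESA5* (chr5:22239223-22239282, minus strand) and 48 in *PER1* (chr1:17780354-17780413, plus strand). The same letters thus stood near the start of genes that rose (*LHCB2.3*, *LHCB4.1* and *LHCB6*) and of genes that fell (*SESA2*, *SESA5* and *PER1*).

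Dark-induced genes, which answer to sugar shortage and long darkness, were lower in *pif145*. Of 11 genes 5 fell and 0 rose, against 1.53% and 2.02% of all loci. At the adjusted p 9 were lower, against 15.5% of all loci (median log2 -0.83). *DIN2* (AT3G60140), a beta-glucosidase, had 4.55, 9.09 and 7.74 CPM in *pif145*, against 112, 105 and 109.6 CPM in WT (log2 -3.99, SE 0.16, edgeR adjusted p = 2.28e-12). *ASN1* (AT3G47340), asparagine synthetase, had 50.0, 47.9 and 37.8 CPM in *pif145* and 243, 202 and 158 CPM in WT (log2 -2.14, SE 0.09). *BCAT2*, a branched-chain amino acid transaminase, had 7.47, 11.2 and 12.6 CPM in *pif145* and 44.6, 46.7 and 37.5 CPM in WT (log2 -2.07, SE 0.13). The groups lay far apart in these 3 genes. The dormancy-associated *DRM2* (AT2G33830) fell by log2 1.13 (SE 0.11). *DIN10*, a raffinose synthase, fell by log2 1.05 (SE 0.10), a call lost without replicate 3 of WT (log2 -0.94) and without the block. *DYL1* (log2 -0.67, SE 0.08) and *SEN1* (AT4G35770, log2 -0.59, SE 0.08) did not reach 2-fold.

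In flavonoid synthesis 3 of 8 genes rose and 1 fell (median log2 0.56). *CHS* (AT5G13930), chalcone synthase and the first step of the pathway, had 18.2, 27.1 and 23.6 CPM in *pif145* and 4.1, 7.38 and 6.46 CPM in WT (log2 1.93, SE 0.16). *CHI*, chalcone isomerase, rose by log2 1.51 (SE 0.12) and *FLS1*, flavonol synthase, by 1.34 (SE 0.13), while *MYBL2*, a repressor of the anthocyanin branch, fell by 1.51 (SE 0.18). *DFR* and *LDOX* of that branch were too low to be tested. Other large rises lay outside the lists. *QQS* (AT3G30720), an *Arabidopsis*-specific gene of starch and protein balance, had 9.08, 9.57 and 8.90 CPM in *pif145* and 0.775, 0.471 and 0.655 CPM in WT (log2 3.87, SE 0.16). *BCAT4* (AT3G19710), which starts methionine-derived glucosinolate synthesis, had 1.41, 1.48 and 3.23 CPM in *pif145*, from 180 reads, and 4 reads over the WT libraries (log2 5.57, SE 0.50). *ESM1*, which acts in glucosinolate breakdown, had 4.75, 1.16 and 3.68 CPM in *pif145* and 0.129, 0.209 and 0.446 CPM in WT (log2 3.56, SE 0.30). *MSRB6*, a methionine sulfoxide reductase gene, rose by log2 2.59 (SE 0.18), a call lost without the block.

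The largest fall outside the mutated genes was that of *MRD1* (AT1G53480, chromosome 1, 19963047 to 19964712). It had 0.718, 1.32 and 0.601 CPM in *pif145*, against 49.0, 73.4 and 84.1 CPM in WT (log2 -6.27, SE 0.15, edgeR adjusted p = 5.33e-16). *HEI10* (AT1G53490, chromosome 1, 19963267 to 19966952), a gene of meiotic crossover that overlaps it on the other strand, had 0.891, 2.2 and 1.39 CPM in *pif145* and 5.23, 6.93 and 5.33 CPM in WT (log2 -2.02, SE 0.19). The authors counted reads of the coding strand alone. *EXT10* (AT5G06640), an extensin of the root hair list, had 0.742, 1.44 and 0.676 CPM in *pif145* and 6.91, 7.35 and 5.95 CPM in WT (log2 -2.86, SE 0.22). It was the sole member of 17 root hair genes to change (median log2 0.11), and *RSL4* and *RHD6*, regulators of those cells, were at log2 -0.10 (SE 0.13) and 0.33 (SE 0.30). *AT1G14930* was a further large fall, with 0.272, 0.681 and 0.902 CPM in *pif145* and 10.5, 6.33 and 9.34 CPM in WT (log2 -3.93, SE 0.35, or -3.19 without replicate 1 of *pif145*).

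Marker lists of cell types and states were set beside these values. Root hair genes summed to 297 to 399 CPM in *pif145* and 313 to 380 CPM in WT, and stomatal lineage genes to 41.4 to 49.3 CPM in *pif145* and 36.7 to 41.2 CPM in WT. The 11 genes of dividing cells were all higher by sign in *pif145* (median log2 0.60), 9 at the adjusted p, against 16.2% of all loci. They summed to 82.3 to 93.6 CPM in *pif145* and 56.7 to 68.8 CPM in WT. Of these *CYCB1;1*, a mitotic cyclin, rose (log2 1.34, SE 0.36), and among 8 stomatal lineage genes *EPF2*, a peptide that limits entry to the lineage, rose (log2 1.12, SE 0.31). Both averaged under 2 CPM in each genotype, and both calls were lost without the block. The count of dividing cell genes that rose was 0 without replicate 1 of *pif145* and 3 without replicate 1 of WT, and that of stomatal lineage genes 0 without replicate 1 of WT. The 7 heat shock genes held 0 changes, and 4 were higher at the adjusted p, against 16.2% of all loci (median log2 0.57). Their sums were 121 to 193 CPM in *pif145* and 79.9 to 86.6 CPM in WT, and 2 changed without replicate 3 of *pif145*. The embryo gene *LEC1* and the genes *EPF1* and *EPFL9*, which act in stomatal development, had 0 reads in both genotypes. The 6 reference genes held 0 changes (median log2 -0.07), with *ACT2* at log2 -0.38 (SE 0.08), *GAPC1* at 0.22 (SE 0.07) and *UBQ10* at -0.03 (SE 0.07). The part of any of these levels in the changes above was not tested. Of 22 light signalling regulators 2 fell, *FHL* (log2 -1.69, SE 0.45) and *SPA4* (log2 -1.23, SE 0.35), both averaging under 1 CPM and both lost without the block and without replicate 1 of *pif145*. At the adjusted p 7 of the 22 were lower in *pif145* and 1 was higher, against 15.5% and 16.2% of all loci. *PHYB* was at log2 -0.65 (SE 0.12), *BBX21* at -0.46 (SE 0.07) and *PHYA* at -0.30 (SE 0.07). *HY5* was at log2 -0.25 (SE 0.17) and *HYH* at 0.83 (SE 0.20). Of 16 clock genes 0 changed at 2-fold, to be read beside the 3.55% of all loci that did. At the adjusted p 4 clock genes were lower and 0 higher, against 15.5% and 16.2% of all loci (median log2 -0.27).

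The same loss of PIF1, PIF4 and PIF5 was also measured without PIF3, as *pifq* over *pif3*, in 6 libraries that *pif145*/WT does not use. There 1319 loci changed (7.19%), 704 of them rising (3.84%) and 615 falling (3.35%). Of the 371 rises in *pif145*/WT, 265 also rose in *pifq*/*pif3* (71.4% of the *pif145*/WT rises and 37.6% of the *pifq*/*pif3* rises), and 3 fell. Of the 281 falls, 185 also fell (65.8% of the *pif145*/WT falls and 30.1% of the *pifq*/*pif3* falls), and 2 rose. The effect itself differed between the backgrounds at an adjusted p up to 0.05 in 72 of the 652 changed loci (11%) and in 472 of all loci (2.57%). Among those 72, the 24 rises were smaller with PIF3 present in 13 and larger in 11, and the 48 falls were smaller with PIF3 present in 42 and larger in 6. The count of 472 was 20 without the replicate block and 74 with the sequencing platform in its place. Leaving out replicate 1 of every genotype gave 864 such loci, replicate 2 gave 199 and replicate 3 gave 144, with 279 and 254 without replicate 2 or 3 of *pif145*, so single values carry more weight here than the count.

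**Figure D4:**
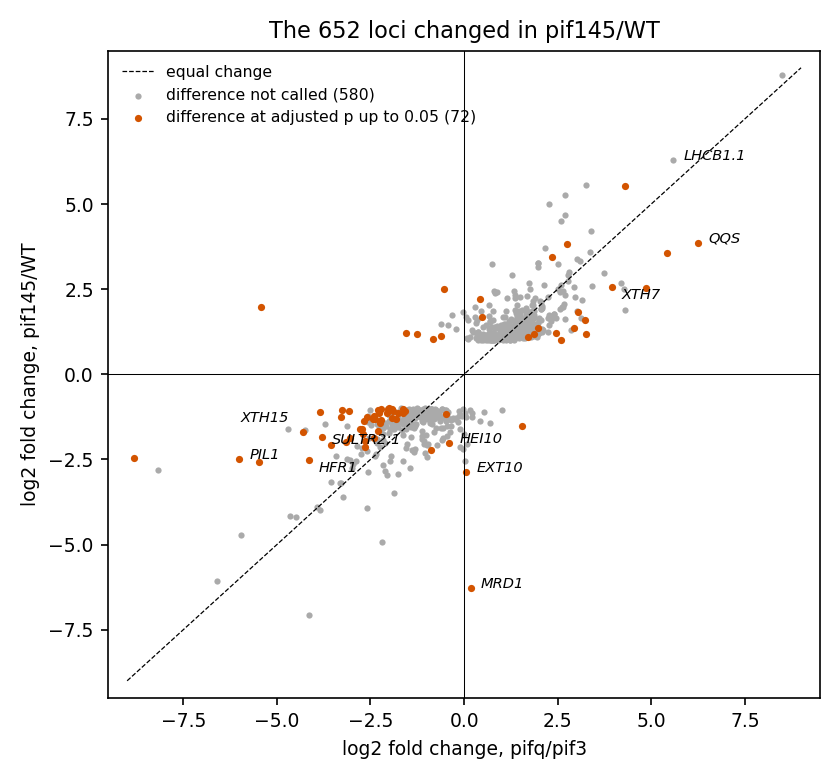
Log2 fold change of *pif145* over WT (vertical axis) against that of *pifq* over *pif3* (horizontal axis) for the 652 loci changed in *pif145*/WT, with equal change on the dashed line. Orange points are the 72 loci whose 2 values differed at an edgeR adjusted p up to 0.05. *MRD1* and *EXT10* fell on the vertical axis alone, and *PIL1* and *XTH15* lie further from 0 on the horizontal axis.

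Shade-induced genes were among those whose fall was smaller with PIF3 present. *PIL1* stood at log2 -2.49 in *pif145*/WT and -6.01 in *pifq*/*pif3*, a difference of 3.52, and *XTH15* at -1.70 and -4.29. *HFR1* stood at -2.50 and -4.15. *CYS2* (AT2G31980), a cysteine protease inhibitor gene, had 33.5, 30.6 and 38.4 CPM in *pif145* and 87.0, 67.8 and 91.4 CPM in WT (log2 -1.26, SE 0.09), and was at log2 -3.29 in *pifq*/*pif3* (difference 2.03, edgeR adjusted p = 3.62e-08). *SULTR2;1* (AT5G10180), a sulfate transporter, had 13.3, 22.6 and 18.2 CPM in *pif145* and 62.8, 66.4 and 60.7 CPM in WT, with log2 -1.85 in *pif145*/WT and -3.81 in *pifq*/*pif3*. *AT4G35720* differed likewise (log2 -1.08 and -3.07), although its fall in *pif145* was not called without the block or without replicate 1 of *pif145*. The lowest levels in *pifq* relative to *pif145* among falls of at least 2 CPM included those of *COPT3*, a copper transporter gene, and *AT1G72290*, with 0 reads in all 3 *pifq* libraries. *COPT3* averaged 0.511 CPM in *pif145* and 3.31 CPM in WT (log2 -2.82, SE 0.39, or -2.23 without replicate 1 of *pif145*), and its difference between the backgrounds was not called (edgeR adjusted p = 0.118). *AT1G72290* averaged 0.611 CPM in *pif145* and 3.03 CPM in WT (log2 -2.47, SE 0.37), at log2 -3.16 without replicate 2 of *pif145* and not called without the block.

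Other genes were the reverse or did not differ. *MRD1* was at log2 -6.27 in *pif145*/WT and 0.17 in *pifq*/*pif3* (difference -6.44, edgeR adjusted p = 1.22e-14), with 84.4 CPM in *pifq* and 74.2 CPM in *pif3* on average, both near the WT level. *EXT10* was at log2 -2.86 and 0.05 (difference -2.91), and *HEI10* at -2.02 and -0.40. Among the 4 genotypes these 3 transcripts had their lowest mean in *pif145*. Here the presence of PIF3 and any other trait of the *pif145* line cannot be told apart, and neither was tested. *QQS* rose by less with PIF3 present, at log2 3.87 in *pif145*/WT and 6.24 in *pifq*/*pif3*, whereas *LHCB1.3* rose by more, at 3.45 and 2.34, as did *LHCB1.5*, at 3.84 and 2.74. For the seed genes *CRA1* (log2 -3.60 and -3.24), *HIS1-3* (-3.20 and -3.30) and *AGL67* (-3.20 and -3.30) no difference was called, nor for *DIN2* (-3.99 and -3.85) or *CHLH* (1.42 and 1.52). The *pifq* and *pif145* levels, a comparison that shares the *pif145* libraries, were also near each other for *CRA1* (log2 of *pifq*/*pif145* 0.27), *HIS1-3* (-0.07) and *DIN2* (-0.42), and apart for *PIL1* (-4.10), *XTH15* (-2.57) and *LHCB1.1* (2.85).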

How the data were processed

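Per the study's methods, libraries were prepared from polyA-tailed 3′-end fragments in 3 biological replicates, replicate 1 on a GAIIx and replicates 2 and 3 on a HiSeq2000. The authors aligned 36-base reads with Bowtie at 0 mismatches and deposited raw counts per locus, counting reads unique to the last 500 bases of the coding strand. The methods name TAIR9, and the submitters' processing notes TAIR10, Bowtie 0.12.7 and CASAVA 1.7.0. Shared reads of near-identical copies are therefore missing. The tables hold counts only. Symbols and coordinates come from RefSeq TAIR10.1, which held 32835 of 33602 loci (97.7%).

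Here the deposited counts of 12 libraries were scaled by TMM, filtered by edgeR's expression filter (18356 loci) and fitted with edgeR 4.0.16 in R 4.3.3 (quasi-likelihood test, genotype plus replicate number, Benjamini-Hochberg adjustment). Fold changes are mutant over comparison, and SE is on the log2 scale. The sources used here tie a replicate number to a biological replicate and a platform, and do not say whether libraries with the same number shared a day or batch. The replicate number was set as the block beforehand, and libraries with the same number were treated as paired. Deviations from genotype means correlated at 0.51 to 0.68 in 18 pairs with the same number (0.51 to 0.67 for *pif145* with WT) and at -0.49 to -0.0036 in 36 pairs with different numbers. Deviations cancel within a genotype, so the negative values follow in part from the positive ones. No pair of libraries within a genotype agreed within sampling noise (chi-square per degree of freedom 37.5 to 111). The p-values and SE measure the spread left among the 12 libraries once the replicate effect is removed. The common dispersion, edgeR's measure of that spread, was 0.00719 with the replicate block and 0.0572 without it. The reads carry no molecular identifiers, so read sums cover counting error alone. The script was tested on simulated data.

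The text names the PIF genes and relatives, the 12 largest rises and 12 largest falls of at least 2 CPM without overlap, up to 4 members of each list with the smallest p, 6 loci with the smallest p of the difference, and the 4 falls lowest and 4 highest in *pifq*/*pif145*. Other list members named were chosen after their values were seen. The members, the 32 lists (535 loci) and the rules were chosen with earlier results of these data known. Alternatives covered the block, platform, scaling, DESeq2 1.42.0, filters, fold minimum and left-out libraries. One listed gene is not reported here.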

Additional observations from a re-analysis of the deposited data

Results flagged for a closer look

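These genes were set apart because their change in *pif145*/WT differed from that in *pifq*/*pif3* at an edgeR adjusted p up to 0.05. Each value is the log2 fold change of *pif145*/WT minus that of *pifq*/*pif3*. With 472 such loci of 18356, and 20 without the replicate block, the calls depend on the model.

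Among genes that fell in *pif145*, the difference was above 0, a smaller fall with PIF3 present, for *PIL1* (3.52), *AT4G27790* (2.88), *XTH15* (2.59), *CYS2* (2.03), *AT4G35720* (1.99), *SULTR2;1* (1.96), *HFR1* (1.65), *BCAT2* (1.48), *PRE5* (1.13), *IAA29* (0.95), *EXPA9* (0.93) and *ASN1* (0.49). For *AT1G72290* the fitted difference of 6.36 rests on 0 reads in *pifq* and depends on the prior count. The difference was below 0, a larger fall in *pif145*/WT than in *pifq*/*pif3*, for *MRD1* (-6.44), *EXT10* (-2.91) and *HEI10* (-1.62). For these genes the presence of PIF3 cannot be told apart from another trait of the *pif145* line.

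Among genes that rose it was above 0 for *LHCB1.2* (1.24), *LHCB1.3* (1.11) and *LHCB1.5* (1.1), each of which started from a higher level in *pif3* than in WT. That higher level does not set them apart, since *LHCB1.1*, *LHCB2.2* and *LHCA1* shared it with no difference called. Its part in the differences was not tested. The difference was below 0 for *QQS* (-2.37), *ESM1* (-1.86) and *XTH7* (-1.37). Others did not reach 2-fold in *pif145*/WT, namely *ACS5* (1.77), *OLEO3* (1.52), *SAUR16* (0.60), *IAA19* (0.54), *IAA3* (0.53), *GA2OX6* (0.52), *XTH30* (0.47), *IAA7* (0.43) and *HSP17.6II* (-0.76).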

How the results depend on the processing

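Without the replicate block, that is with the pairing of libraries ignored, 314 loci changed in *pif145*/WT (164 rose and 150 fell), 311 of them also among the 652, and 20 loci differed between *pif145*/WT and *pifq*/*pif3*. Of the 69 changed loci named by the stated rule, 63 kept their call without the block. With at least 5 CPM in 3 libraries, which leaves fewer loci to test, 288 changed (153 rose and 135 fell) and 646 in *pifq*/*pif3*. Against a minimum fold of 1.5, 396 changed (219 and 177) and 71 differed. With the platform in place of the block, 523 changed and 74 differed. The cause was not tested for the other counts that moved. Leaving out libraries gave 521 to 722 changed loci, 300 to 403 rises, 221 to 322 falls, 88 to 107 changed list members, 1240 to 1373 changed loci in *pifq*/*pif3* and 144 to 864 loci that differed. DESeq2 gave 603 changed loci, 595 of them among the 652. No named locus that was called changed sign under any alternative. The fit of the 6 *pif145* and WT libraries alone gave 592 changed loci and no value for *pifq*/*pif3*. Depth limits the 178 rises and 101 falls under 2 CPM, where few reads stand behind a fold change.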

Other observations

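The genes in these paragraphs were chosen singly after their values were seen, with no list or count behind them, and stand for no gene group. *MGL*, methionine gamma-lyase, had 10.6, 17.2 and 16.9 CPM in *pif145* and 42.4, 55.1 and 66.8 CPM in WT (log2 -1.88, SE 0.09). *MCCA*, of leucine breakdown, had 8.34, 12.9 and 15.3 CPM in *pif145* and 28.3, 36.7 and 34.0 CPM in WT (log2 -1.47, SE 0.11). *ERD5*, proline dehydrogenase, averaged 23.5 CPM in *pif145* and 66.5 CPM in WT (log2 -1.47, SE 0.15). *PDS1* and *HGO*, both of tyrosine breakdown, were at log2 -1.0 each (SE 0.09 and 0.11). The tonoplast aquaporin genes *TIP3;1* (log2 -1.84, SE 0.24) and *BETA-TIP* (log2 -2.03, SE 0.16) fell, as did *EEL*, a bZIP factor of the embryo (log2 -1.57, SE 0.12).

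Among the rises, *CA1*, a carbonic anhydrase gene, had 147, 38.1 and 74.5 CPM in *pif145* and 31.8, 11.3 and 8.87 CPM in WT (log2 2.3, SE 0.21). *RPT2*, a phototropism gene, had 55.4, 22.7 and 28.2 CPM in *pif145* and 14.4, 9.86 and 11.3 CPM in WT (log2 1.51, SE 0.11). The B-box genes *BBX14* (log2 1.27, SE 0.12) and *BBX15* (log2 1.71, SE 0.15) also rose. *AT4G23680* averaged 680.4 CPM in *pif145* and 143 CPM in WT (log2 2.25, SE 0.07). Of 18 plastid-encoded loci tested 4 rose and 0 fell, but their libraries overlap between genotypes and vary widely within them, as in *ATCG00170*, with 0.124, 5.05 and 35.5 CPM in *pif145* and 0, 1.73 and 15.1 CPM in WT.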
